A study of Mus musculus with 11 samples.

Results

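The adrenal gland was studied here for genes whose difference between Nestin-GFP-positive and Nestin-GFP-negative cells depended on the tissue, cortex or medulla, from which the cells were sorted. All 11 of the 11 RNA-seq libraries of the series entered the test, since its rule takes every library and no measured value. Cells came from male mice of the strain Nes-GFP, in which Nestin regulatory sequence drives green fluorescent protein (GFP), so every group carries the reporter and the gate selects on the fluorescence of a reporter, not on Nestin protein. The groups were GFP-positive cells of the cortex (n = 3, of which 2 libraries came from mice of about 3.5 months and 1 from mice of about 2.5 months), GFP-negative cells of the cortex (n = 3, also 2 older and 1 younger), GFP-positive cells of the medulla (n = 3, 1 older and 2 younger) and GFP-negative cells of the medulla (n = 2, both older). Tissue was pooled from pairs of mice, dissociated with collagenase and sorted in small numbers of cells per tube. No label ties a library to a pool, so p-values measure the spread between these libraries, part of which may be technical.

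Nestin is an intermediate filament of neural stem cells, neural crest derivatives, immature glia and some mural cells of blood vessels, so a Nestin reporter can mark different cells in different tissues. The adrenal cortex makes steroid hormones in concentric zones, with aldosterone from the outer zona glomerulosa and glucocorticoid from the zona fasciculata. The medulla holds catecholamine-secreting chromaffin cells, which derive from the neural crest, and the glial cells that ensheath them. An interaction asks whether the step from GFP-negative to GFP-positive cells is the same in both tissues. It is given as the log2 change between gates in the cortex minus that in the medulla, so that a positive value stands for a gene that was, relative to GFP-negative cells, higher in GFP-positive cells of the cortex than in those of the medulla.

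Total counts per library ranged from 18500690 to 29204212, so that 3 counts, the floor used for a group with none, amounted to 0.104 to 0.157 CPM (read counts scaled to a common library size) in a single library. These limits cover counting error only, since the PCR reads carry no molecular identifiers. Nes passed the gate test in both tissues, by 2.80 on the log2 scale in the cortex (SE 0.391) and 2.37 in the medulla (SE 0.443), and its interaction of 0.43 (SE 0.545) was not called (edgeR adjusted p = 0.765). The chromaffin genes Chga, Chgb, Th, Dbh and Npy had group means of 0 to 19.0 CPM in the cortical gates and 360.3 to 3847 CPM in the medullary gates. The summed level of 40 chromaffin genes was 1907 to 2748 CPM in cortical and 8375 to 18968 CPM in medullary libraries, but the prohormone-processing gene Cpe alone held group means of 1578 and 2384 CPM of the cortical sums. The 29 steroid genes summed to 43386 to 92566 CPM in cortical libraries, but also to 29059 to 51414 CPM in GFP-positive and 12175 to 21639 CPM in GFP-negative libraries of the medulla. The 25 macrophage genes summed to 6630 to 9914 CPM in GFP-negative libraries of the cortex and 34284 to 35838 CPM in those of the medulla, against 113 to 598 CPM and 740 to 2114 CPM in the GFP-positive libraries. In such pools fewer cells of a type and less RNA per cell cannot be told apart.

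The gates differed in many genes in both tissues. Of 20893 genes tested, 3078 (14.7%) were called between gates in the cortex and 4461 (21.4%) in the medulla, by edgeR's quasi-likelihood test at an adjusted p of 0.05. Of the 2021 genes called in both tissues, 1992 moved in the same direction and 29 in opposite directions. The interaction was called for 337 genes (1.61% of those tested, and 6.11% of the 5518 called between gates in either tissue), 179 with a positive value (0.857%) and 158 with a negative value (0.756%). The unadjusted p was below 0.05 for 3495 genes. With total counts in place of scaled library sizes there were 122 positive and 270 negative calls, and the median interaction over all genes moved from -0.02 to -0.19.

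Gate calls of the interaction genes were more often medullary, as were those of all genes (21.4% against 14.7% in the cortex). The gate was called in the medulla alone for 160 of the 337 genes, in the cortex alone for 70, in both tissues with the same direction for 78 and in both with opposite directions for 29. The larger change was in the medulla for 243 genes and in the cortex for 94. Medullary GFP-positive cells held the highest mean level for 143 genes and medullary GFP-negative cells for 129, against 24 and 41 for the corresponding groups of the cortex. The median size of a called interaction was 2.17 on the log2 scale, and 321 were at least 2-fold. An interaction on the log2 scale need not hold on a linear scale: the difference of differences in CPM had the same sign for 296 of the 337 genes and the other sign for 41, while all 29 opposite-direction genes had the same sign.

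**Figure D1:**
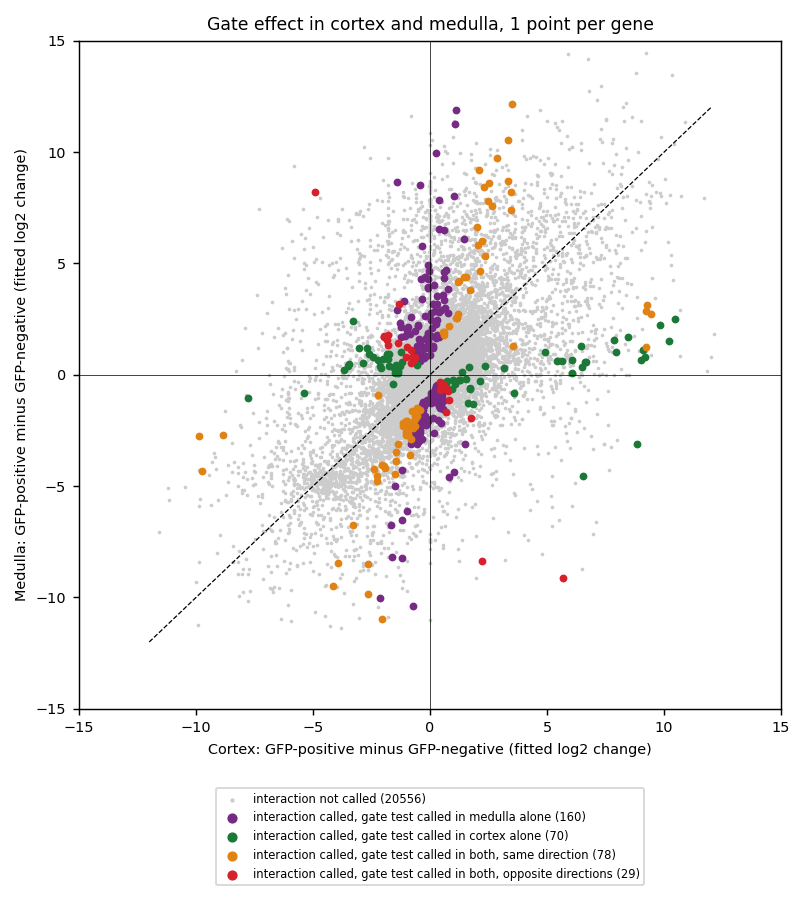
Fitted log2 change from GFP-negative to GFP-positive cells in the cortex (x axis) and in the medulla (y axis), 1 point per tested gene, with called interactions coloured by the tissue in which the gate test was called and a dashed line where both changes are equal. Of the coloured points 160 were called in the medulla alone and 70 in the cortex alone, and the 29 red points lie in the quadrants of opposite sign; for genes without counts in some group the plotted change is a model value and no bound.

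The number of calls leaned on single libraries. Leaving out 1 library at a time gave between 56 calls (without medullary GFP-negative library 2) and 489 (without medullary GFP-negative library 1), and 74, 60 and 80 without cortical GFP-negative library 1, 2 and 3. Leaving out a cortical GFP-positive library gave 169, 184 and 183 calls. Of the 337 genes, 31 were called in all 11 of these fits, 21 with positive and 10 with negative interactions, and of these 31 all were called with age as a covariate and 25 with voom. In the fits of this kind and in every other alternative, all 337 kept the sign of the interaction wherever they were tested. Libraries of the older mice alone gave no call (0 by edgeR, 2370 genes at an unadjusted p below 0.05, lowest adjusted p 0.0822). There is no medullary GFP-negative library of younger mice, so no value within the younger mice exists, and age and gate are partly confounded in the medulla.

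Some of these 31 lie outside the groups described next and are given here after their values were seen. Synm, an intermediate filament protein that assembles with partners such as nestin and desmin, stood at 32.9 ± 4.27 against 14.4 ± 1.89 CPM (SD, n = 3 each) in the cortex and 61.7, 84.7 and 50.9 against 3.73 and 3.57 CPM in the medulla (interaction -2.98, SE 0.327, edgeR adjusted p = 0.00776). It rose in both tissues, 2.28-fold and 18.0-fold. Rgs2, a brake on G protein signalling, stood at 550, 606 and 557 against 539, 685 and 651 CPM in the cortex, which overlap, and 235, 185 and 247 against 959 and 815 CPM in the medulla (interaction 1.87, SE 0.211, edgeR adjusted p = 0.00776). Adcy7, an adenylyl cyclase, was 7.44-fold lower in medullary GFP-positive cells and stood at 28.9 ± 4.58 against 36.3 ± 6.70 CPM (SD, n = 3 each) in the cortex (interaction 2.56, SE 0.292, edgeR adjusted p = 0.00776).

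Negative interactions included 3 genes of the glial list, Gfap, Serpine2 and Fxyd1. The astroglial filament gene Gfap rose in medullary GFP-positive cells, and its cortical gate test was not called. The spindle orientation genes Gpsm2 and Insc, whose products act as partners in the complex that anchors the mitotic spindle in asymmetric division, had the same pattern. Of 36 Schwann cell and glial genes tested, 3 had a called negative and 1 a called positive interaction (0.756% and 0.857% over all genes). In the gate tests 25 rose in cortical and 30 in medullary GFP-positive cells (7.14% and 10.2% over all genes) and none fell. The list's median change was 4.05 in the cortex and 5.52 in the medulla (5.53 with genes without counts at their bound) and its median interaction -0.998, beside 0.03, 0.09 and -0.02 over all genes tested. The summed level of the list was 1081 to 1450 CPM in cortical GFP-positive and 447 to 526 CPM in cortical GFP-negative libraries, and 6146 to 13585 against 531 to 539 CPM in the medulla.

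Gfap (ENSMUSG00000020932, chromosome 11, 102887336 to 102900912 of mm10) stood at 121, 370 and 158 CPM in the 3 medullary GFP-positive libraries and at 0 and 0.447 CPM in the GFP-negative ones. In the cortex it stood at 1.38, 1.42 and 2.12 CPM in GFP-positive and 1.64, 1.32 and 1.10 CPM in GFP-negative libraries, which overlap. Its interaction was -9.68 (SE 1.02, edgeR adjusted p = 0.00776). Gpsm2 (chromosome 3, 108678638 to 108722309) had the lowest adjusted p of all genes, with an interaction of -6.17 (SE 0.518, edgeR adjusted p = 0.00538). It stood at 46.9, 76.9 and 59.3 CPM against 0.731 and 0.569 CPM in the medulla, and at 3.47, 5.71 and 3.74 against 4.63, 2.68 and 2.72 CPM in the cortex. Insc (chromosome 7, 114743694 to 114850383) stood at 26.9, 42.6 and 30.1 CPM against 0 and 0.731 CPM in the medulla (interaction -5.93, SE 1.06, edgeR adjusted p = 0.0295). In the cortex Insc stood at 3.65, 5.07 and 4.37 against 3.21, 2.61 and 2.87 CPM. These cortical gates did not overlap, though the gate test was not called there (edgeR adjusted p = 0.566). For all 3 genes the medullary gates did not overlap, and no cortical library reached the level of any medullary GFP-positive library.

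**Figure D2:**
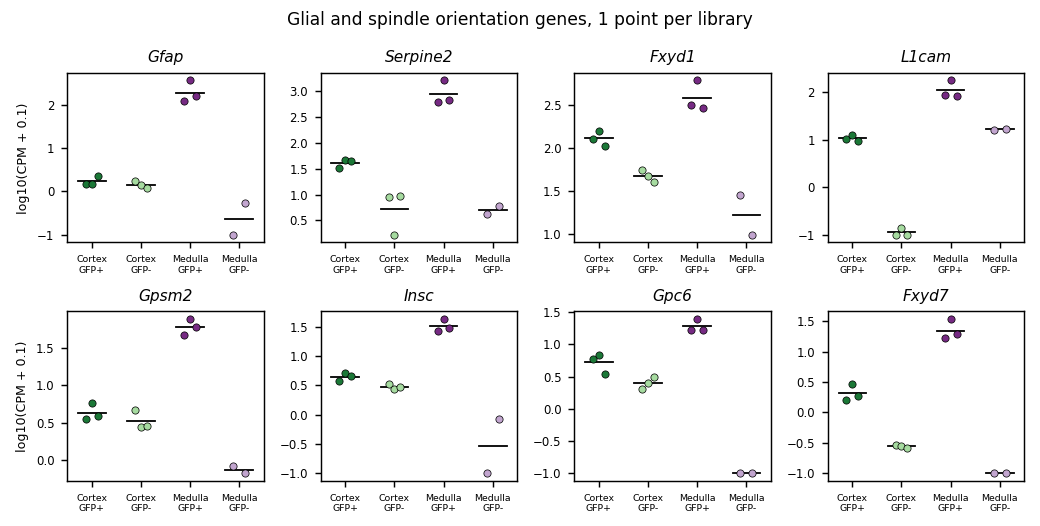
Level of 8 glial, spindle orientation and related genes as log10(CPM + 0.1), 1 point per library, with the mean of the plotted values as a line, for GFP-positive and GFP-negative cells of each tissue. Gfap, Gpsm2 and Insc are high in medullary GFP-positive cells alone, while L1cam is at 0 or 1 count in cortical GFP-negative cells and detected in the other 3 groups.

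Serpine2 and Fxyd1 are on the glial list, while Fxyd7, Gpc6 and Stx11, which also had called negative interactions, are not. Serpine2, a secreted protease inhibitor of glial cells, rose in both tissues, from 9.07, 1.58 and 9.33 to 33.0, 46.4 and 44.5 CPM in the cortex and from 4.13 and 6.01 to 617, 1637 and 680 CPM in the medulla (interaction -4.96, SE 0.904, edgeR adjusted p = 0.0305). Fxyd1 and Fxyd7, neighbouring genes on chromosome 7 for small regulators of the sodium pump, did likewise. Fxyd1 rose 2.75-fold in the cortex and 21.2-fold in the medulla (interaction -2.95, SE 0.595, edgeR adjusted p = 0.0412). Fxyd7 stood at 16.4, 34.4 and 19.2 CPM against no count in the medulla, at least 431-fold higher if 3 counts are assumed for the GFP-negative group, and rose 11.2-fold in the cortex (edgeR adjusted p of the interaction = 0.0137). Gpc6, a glypican (chromosome 14, 116925297 to 117979529), stood at 16.9, 24.7 and 16.8 CPM against no count in the medulla, at least 351-fold higher, and at 5.36 ± 1.74 against 2.47 ± 0.564 CPM (SD, n = 3 each) in the cortex (edgeR adjusted p = 0.00688). Stx11, a syntaxin of vesicle fusion, had 1412 counts in medullary GFP-positive and 3 in GFP-negative libraries, a ratio of 364 (exact 95% interval 124 to 1766), and rose 4.88-fold in the cortex (edgeR adjusted p = 0.00776).

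Among the other genes with large negative interactions, Olfml2a, Phgdh and Col18a1 passed the gate test in the medulla alone, Fstl3 in both tissues and Amph in the cortex alone. Olfml2a, an extracellular olfactomedin-domain protein, rose 30.4-fold in the medulla and stood at 16.9 ± 2.90 against 17.9 ± 5.13 CPM (SD, n = 3 each) in the cortex (interaction -5.00, SE 0.690). Phgdh, which opens serine synthesis, rose 19.9-fold in the medulla, with 4.90 ± 1.85 against 6.47 ± 0.294 CPM (SD, n = 3 each) in the cortex (interaction -4.71, SE 0.831). Col18a1, a basement membrane collagen, was the called member among 15 basement membrane genes, of which 6 rose in the cortex and 13 in the medulla (7.14% and 10.2% over all genes, and 1.61% for the interaction) and none fell. It stood at 129, 306 and 109 against 20.5 and 14.3 CPM in the medulla and at 35.0 ± 5.51 against 44.2 ± 5.16 CPM (SD, n = 3 each) in the cortex (interaction -3.72, SE 0.549). Fstl3, an activin-binding protein, rose by 3.46 in the cortex and 8.21 in the medulla on the log2 scale (interaction -4.76, SE 0.914). Amph, an endocytic adaptor of nerve terminals, was 9.75-fold lower in GFP-positive cells of the cortex, while in the medulla it stood at 26.8 ± 6.48 (SD, n = 3) against 4.98 ± 2.55 CPM (SD, n = 2), which did not pass the gate test (edgeR adjusted p = 0.0560; interaction -5.71, SE 1.11). The edgeR adjusted p of these 5 interactions lay between 0.0144 and 0.0361.

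L1cam, an adhesion molecule of axons and Schwann cells (chromosome X, 73853778 to 73896105), was the glial gene with a positive interaction. It had 730 counts in cortical GFP-positive libraries (10.4, 12.6 and 9.14 CPM) and 1 count in the GFP-negative ones, a ratio of 853 (exact 95% interval 153 to 33750). In the medulla it rose 7.18-fold, from 16.3 and 16.6 to 89.3, 180 and 85.7 CPM, so the difference in CPM was larger in the medulla although the log2 change was larger in the cortex (edgeR adjusted p of the interaction = 0.0111). Of the defining glial genes, Sox10, which had no count in medullary GFP-negative cells, and S100b were not called in the interaction (edgeR adjusted p = 0.196 and 0.343). S100b stood at 14.5, 20.4 and 22.3 against 0, 0.0367 and 0 CPM in the cortex and at 262, 541 and 264 against 1.31 and 2.07 CPM in the medulla.

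Gfap, Gpsm2, L1cam, Gpc6, Stx11 and Fxyd7 were called in all 11 fits without 1 library. Olfml2a was not called without medullary GFP-negative library 2 (edgeR adjusted p = 0.0672), and Col18a1 not without that library (0.0839) or cortical GFP-negative library 2 (0.0509). Insc was called only without medullary GFP-positive library 1 or a medullary GFP-negative library (0.0517 to 0.0651 otherwise), Fxyd1 only without medullary GFP-positive library 3 or GFP-negative library 1 (0.0525 to 0.106), and Serpine2 only without cortical GFP-negative library 2 or a medullary GFP-positive library (0.0572 to 0.109). Phgdh lost its call without cortical GFP-positive library 1 or 2, any cortical GFP-negative library or medullary GFP-negative library 2 (0.0510 to 0.0645). Fstl3 lost it without cortical GFP-positive library 2 or 3 or any GFP-negative library (0.0575 to 0.0941), and Amph was called only without cortical GFP-positive library 1 or 2 (0.0548 to 0.109). With age as a covariate Insc, Amph, Serpine2, Fstl3, Phgdh and Fxyd1 were not called (0.0680 to 0.0916), and with voom Gfap, L1cam, Serpine2, Fstl3 and Fxyd7 were not (0.0869 to 0.298).

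Several genes of the zona glomerulosa fell in GFP-positive cells of both tissues. Of 17 such genes tested 9 fell in the cortex and 12 in the medulla (7.59% and 11.1% over all genes), and none rose. Called interactions were found for 3, all positive (Cyp11b2, Agtr1b and Dab2, against 0.857% over all genes), while 12 had an interaction above 0. The list's median change was -1.34 in the cortex and -2.61 in the medulla, and its median interaction 1.13. Its summed level was 2746 to 3595 CPM in cortical GFP-positive, 7531 to 9437 CPM in cortical GFP-negative, 743 to 1091 CPM in medullary GFP-positive and 2898 to 4730 CPM in medullary GFP-negative libraries. In the libraries labelled medulla the summed steroid list was higher in GFP-positive cells (29059 to 51414 CPM against 12175 to 21639 CPM), and the part of cortical cells in these interactions was not tested.

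Cyp11b2, the aldosterone synthase (ENSMUSG00000022589, chromosome 15, 74851010 to 74856318), stood at 103, 62.5 and 65.7 against 1395, 958 and 1197 CPM in the cortex. In the medulla it stood at 0.361, 2.89 and 0.627 against 568 and 399 CPM. The gates did not overlap in either tissue, and the gene was 15.4-fold lower in cortical and 348-fold lower in medullary GFP-positive cells (interaction 4.50, SE 0.742, edgeR adjusted p = 0.0261). Agtr1b, an angiotensin II receptor gene (chromosome 3, 20314473 to 20367177), stood at 7.62, 17.7 and 10.4 against 284, 182 and 176 CPM in the cortex and at 0, 0.243 and 0 against 109 and 42.9 CPM in the medulla (interaction 5.31, SE 0.959, edgeR adjusted p = 0.0302). Dab2, an endocytic adaptor of the zone, was 4.76-fold lower in the cortex and 27.4-fold lower in the medulla (interaction 2.53, SE 0.475, edgeR adjusted p = 0.0336). For these 3 genes the fall in CPM was larger in the cortex, so that the sign of the interaction is that of the log2 scale alone.

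**Figure D3:**
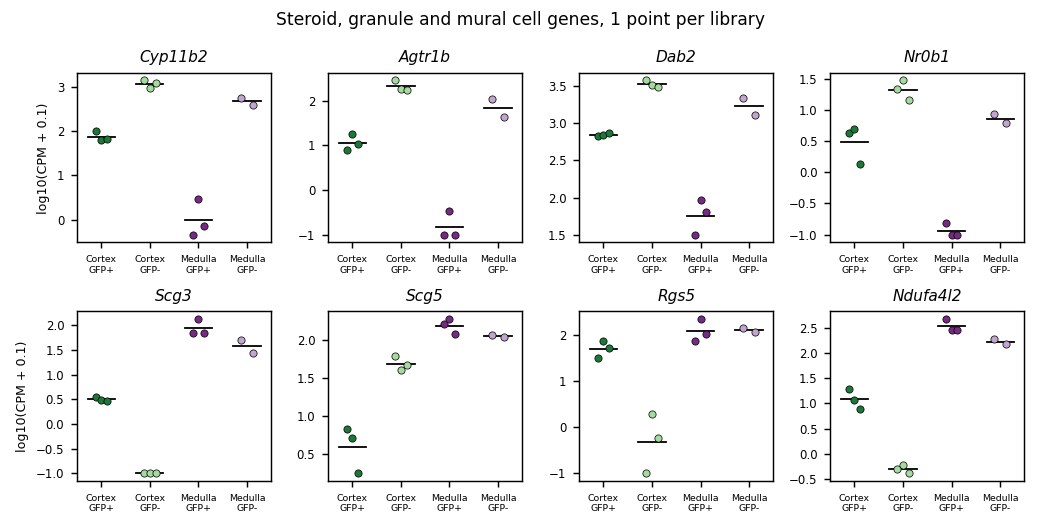
Level of 8 steroid, secretory granule and mural cell genes as log10(CPM + 0.1), 1 point per library, with the mean of the plotted values as a line. Cyp11b2, Agtr1b, Dab2 and Nr0b1 are lowest in medullary GFP-positive cells, Scg3, Rgs5 and Ndufa4l2 are lowest in cortical GFP-negative cells, and Scg5 is lowest in cortical GFP-positive cells.

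Genes outside aldosterone synthesis also had a larger log2 fall in the medulla than in the cortex. Nr0b1, a repressor of steroidogenic transcription also known as Dax1, was 6.34-fold lower in cortical GFP-positive cells, and in the medulla had 1 count against 381, a ratio of 493 (exact 95% interval 88.0 to 19524) (edgeR adjusted p of the interaction = 0.0356). Nkd1, a Wnt target that dampens the pathway, was the called gene among 16 Wnt targets, of which 6 fell in the cortex and 4 in the medulla (7.59% and 11.1% over all genes, and 1.61% for the interaction). It was 3.90-fold lower in the cortex and 17.1-fold lower in the medulla (interaction 2.13, SE 0.368). Plekha7, a protein of adherens junctions, stood at 9.31, 6.19 and 4.28 against 17.4, 17.6 and 10.1 CPM in the cortex and at 0.0516, 0.0348 and 0.157 against 6.47 and 8.57 CPM in the medulla (interaction 5.34, SE 0.719, edgeR adjusted p = 0.0144). Oca2, a transport protein of melanosomes, stood at 16.1 ± 3.78 against 32.4 ± 5.54 CPM (SD, n = 3 each) in the cortex and was 68.9-fold lower in the medulla (interaction 5.10, SE 0.782). Abhd15 stood at 1.10 ± 0.733 against 3.49 ± 0.795 CPM (SD, n = 3 each) in the cortex and was 106-fold lower in the medulla (interaction 5.07, SE 0.892). Plekha7, Oca2 and Abhd15 did not pass the gate test of the cortex. In CPM the fall of Nr0b1, Nkd1, Plekha7 and Oca2 was larger in the cortex, so their sign is that of the log2 scale alone. For Abhd15 the sign was the same in CPM.

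Of 29 steroidogenic genes 3 had a called interaction, all positive (Cyp11b2, Nr0b1 and Npc2, against 0.857% over all genes; Cyp11b2 is also on the zona glomerulosa list), and the list's median interaction was 0.18. Star, which brings cholesterol into mitochondria, rose in both tissues with an interaction of -0.34 (edgeR adjusted p = 0.770), and Cyp11b1, which makes corticosterone, with an interaction of -0.82 (edgeR adjusted p = 0.145). Of 23 cholesterol synthesis genes 10 rose in the cortex and 17 in the medulla (7.14% and 10.2% over all genes), and none had a called interaction (1.61%). Their median interaction was -0.60, and Msmo1 (interaction -1.39, edgeR adjusted p = 0.0512) and Fdft1 (-1.18, edgeR adjusted p = 0.0524) had the lowest p.

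Plekha7 was called in all 11 fits without 1 library. Cyp11b2 was not called without any 1 cortical GFP-negative library or medullary GFP-negative library 2 (edgeR adjusted p of 0.0556 to 0.0638), and Oca2 not without any 1 cortical GFP-negative library (0.0516 to 0.0603). Agtr1b lost its call without cortical GFP-positive library 3, any cortical GFP-negative library or medullary GFP-positive library 1 or 3 (0.0510 to 0.0699), and Nkd1 without cortical GFP-negative library 1 or 3 or medullary GFP-positive library 3 (0.0517 to 0.0568). Dab2 was called only without medullary GFP-positive library 1 or 2 (0.0530 to 0.0818 otherwise), Nr0b1 only without cortical GFP-positive library 3 (0.0538 to 0.0839), and Abhd15 only without cortical GFP-positive library 1, medullary GFP-positive library 2 or medullary GFP-negative library 1 (0.0509 to 0.0846). With age as a covariate Cyp11b2, Agtr1b, Dab2 and Nkd1 were not called (0.0584 to 0.0789), and with voom Agtr1b, Nr0b1, Nkd1 and Abhd15 were not (0.0555 to 0.219).

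In 29 genes (0.139% of those tested) the gate was called in both tissues with opposite directions, 14 higher in GFP-positive cells of the cortex and lower in those of the medulla, and 15 the other way. Such a crossing does not depend on a log or linear scale. Named here as cortex-high are 7 genes: the matrix gene Lum, the Notch ligand gene Jag1, and Shtn1, Jund, Trim30d, Adam9 and Wnk1. The 8 named of the other orientation were Sorcs2, Mboat2, Daam2, Sgpp2, Zdhhc2, Phactr1, Bhlhb9 and Fkbp14. In each of these 15 the libraries of the gates did not overlap in either tissue. The genes were picked by gate tests on the same values, so this separation adds no support.

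Jag1 (ENSMUSG00000027276, chromosome 2, 137081456 to 137116644), a membrane-bound ligand of Notch receptors, stood at 6.77, 24.6 and 16.3 against 6.31, 3.56 and 4.37 CPM in the cortex. In the medulla it stood at 9.81, 14.3 and 5.06 against 39.7 and 35.7 CPM. It was 3.35-fold higher in cortical and 3.87-fold lower in medullary GFP-positive cells (interaction 3.70, SE 0.714, edgeR adjusted p = 0.0359), although cortical GFP-positive library 1 lay only just above the highest GFP-negative library. It was the called member of 16 Notch pathway genes, of which 5 rose and 1 fell in the cortex (7.14% and 7.59% over all genes) and 3 rose and 3 fell in the medulla (10.2% and 11.1%). Lum, which encodes a collagen-binding proteoglycan and was the called member of 18 fibroblast matrix genes, stood at 6.06, 3.69 and 24.9 against 0, 0.661 and 0 CPM in the cortex and had 1 count against 595 in the medulla, a ratio of 770 (exact 95% interval 138 to 30462) (edgeR adjusted p = 0.0286). Its medullary GFP-negative libraries lay far apart, at 20.4 and 1.503 CPM. On its list, unlike Lum, more genes rose than fell in the medulla (7 against 3, beside 10.2% and 11.1% over all genes). In the cortex 6 rose and 1 fell (7.14% and 7.59% over all genes). The list summed to 441 to 510 against 160 to 214 CPM in the cortex and 613 to 1525 against 129 to 158 CPM in the medulla. Over all genes 1.61% had a called interaction.

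Shtn1, a protein that links the cytoskeleton to adhesion in growing axons, was measured more evenly. It stood at 43.4, 38.9 and 44.4 against 22.9, 23.9 and 26.4 CPM in the cortex and at 32.1, 22.8 and 31.1 against 59.9 and 64.5 CPM in the medulla (interaction 1.91, SE 0.237, edgeR adjusted p = 0.0108). Adam9, a membrane metalloprotease, rose 1.62-fold in the cortex and was 1.54-fold lower in the medulla (interaction 1.31, SE 0.256). The kinase gene Wnk1, which controls ion cotransporters, had log2 changes of 0.60 and -0.59 (interaction 1.19, SE 0.218), and Jund, an AP-1 subunit, of 0.75 and -0.73 (interaction 1.49, SE 0.309). In these 4 genes, unlike Lum, every group was well above the floor, and the medullary GFP-negative group had the highest mean.

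Of the 8 genes named with the other orientation, Zdhhc2, a palmitoyltransferase (chromosome 8, 40423815 to 40510268), had the largest interaction. It stood at 8.02, 5.41 and 5.63 against 19.3, 17.3 and 11.5 CPM in the cortex and at 84.5, 174 and 72.0 against 12.7 and 11.4 CPM in the medulla (interaction -4.53, SE 0.538, edgeR adjusted p = 0.00922). Mboat2, a lysophospholipid acyltransferase, stood at 16.7, 32.3 and 19.1 against 96.2, 105 and 68.2 CPM in the cortex and at 59.8, 162 and 97.6 against 36.1 and 27.6 CPM in the medulla (interaction -3.73, SE 0.571). Daam2, a formin of Wnt signalling, was 3.92-fold lower in cortical and 3.28-fold higher in medullary GFP-positive cells (interaction -3.69, SE 0.690). Sorcs2, a sortilin-family receptor of proneurotrophins, was 3.48-fold lower and 3.43-fold higher (interaction -3.58, SE 0.637). Sgpp2, a sphingosine-1-phosphate phosphatase, was 3.60-fold lower and 2.94-fold higher (interaction -3.40, SE 0.622), and Phactr1, a regulator of actin and protein phosphatase 1, 3.47-fold lower and 2.52-fold higher (interaction -3.13, SE 0.559). Bhlhb9 was 2.00-fold lower and 2.37-fold higher (interaction -2.25, SE 0.441), and Fkbp14, a prolyl isomerase of the endoplasmic reticulum, 1.74-fold lower and 2.17-fold higher (interaction -1.92, SE 0.343). The edgeR adjusted p of the 15 genes lay between 0.00861 (Trim30d) and 0.0452 (Jund).

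Of the other opposite-direction genes, 12 are named here after their values were seen. Higher in the cortex and lower in the medulla were Pnpla2, Lrp1, Pitpna, Atf4 and Fth1. Fth1, the heavy chain of the iron store ferritin, was the most abundant, at 8199, 7569 and 7924 against 6123, 5850 and 5849 CPM in the cortex and 7312, 5974 and 7247 against 8760 and 8466 CPM in the medulla (interaction 0.74, SE 0.141, edgeR adjusted p = 0.0352). Pnpla2, the triglyceride lipase of lipid droplets, stood at 98.4 ± 10.7 against 63.0 ± 4.06 CPM (SD, n = 3 each) in the cortex and 75.3 ± 9.18 (SD, n = 3) against 113 ± 8.98 CPM (SD, n = 2) in the medulla (interaction 1.23, SE 0.201). Lower in the cortex and higher in the medulla were Pcbd1, St5, Plxnb1, Cby1, Ccdc181 and the unnamed transcripts 6330403K07Rik and Gm43594. Pcbd1, which recycles the pterin cofactor of tyrosine hydroxylase, stood at 6.41, 6.61 and 5.81 against 15.0, 13.4 and 10.3 CPM in the cortex and 65.0, 80.1 and 61.9 against 41.4 and 38.8 CPM in the medulla (interaction -1.82, SE 0.270, edgeR adjusted p = 0.0212). None of the genes named in this paragraph was called without cortical GFP-negative library 2. With age as a covariate only Pnpla2 and Pcbd1 among them were called. Fth1, Atf4 and Ccdc181 lost the call without any 1 cortical library. Fth1 and Atf4 also lost it with total counts, and Fth1 and Cby1 without a filter. Gm43594 had 1 count in cortical GFP-positive and 0 in medullary GFP-negative libraries.

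**Figure D4:**
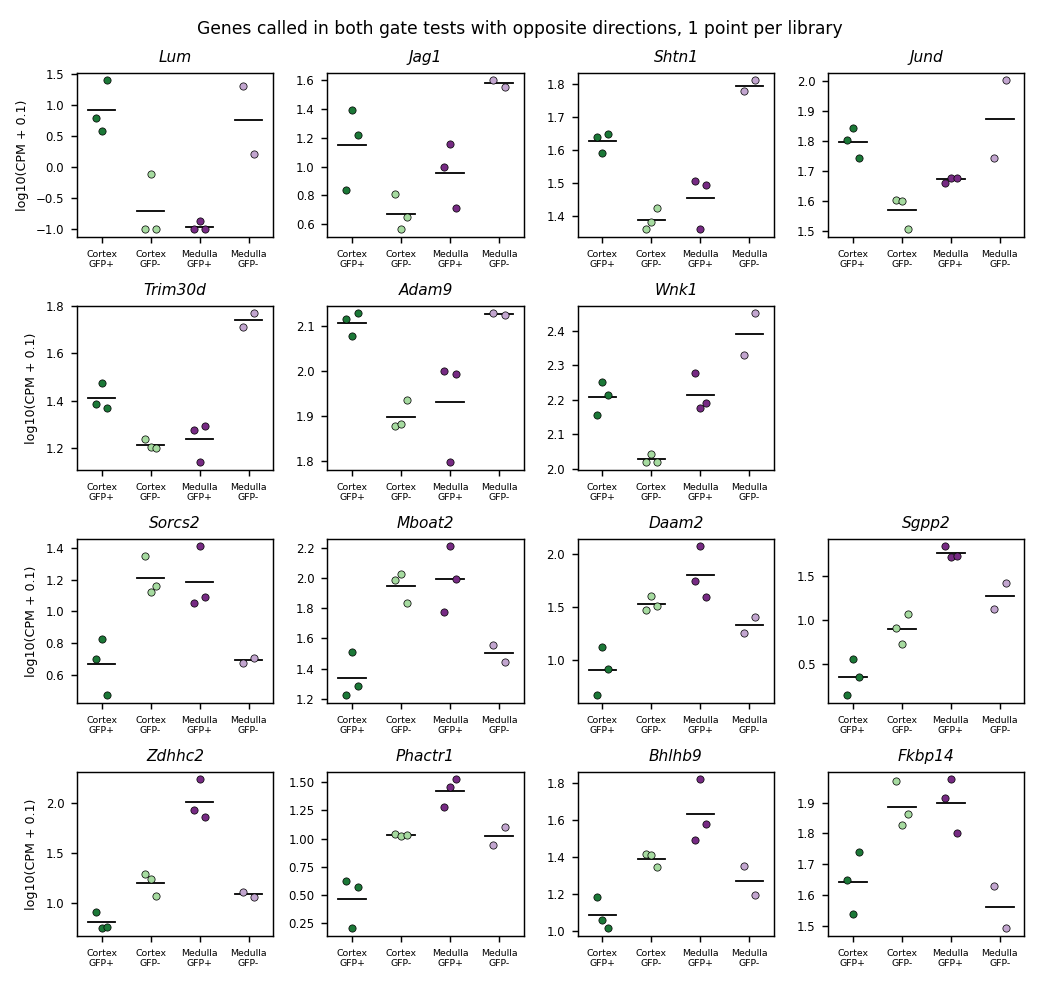
Level of the 15 named opposite-direction genes as log10(CPM + 0.1), 1 point per library, with the mean of the plotted values as a line. In the 7 genes of the upper rows, from Lum to Wnk1, GFP-positive lies above GFP-negative in the cortex and below it in the medulla, and in the 8 genes of the lower rows, from Sorcs2 to Fkbp14, the order is reversed.

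Shtn1, Trim30d and Zdhhc2 were called in all 11 fits without 1 library. Lum was not called without cortical GFP-negative library 1 or 3 or any 1 medullary GFP-positive library (edgeR adjusted p of 0.0551 to 0.0697). Jag1 was called only without cortical GFP-positive library 1 or medullary GFP-positive library 2 (0.0574 to 0.101 otherwise), Jund only without medullary GFP-negative library 1 (0.0659 to 0.131), Adam9 only without a medullary GFP-positive library (0.0584 to 0.106), and Wnk1 only without cortical GFP-positive, medullary GFP-positive or medullary GFP-negative library 1 (0.0559 to 0.103). Mboat2 lost its call without cortical GFP-negative library 1 or 2 or medullary GFP-negative library 2 (0.0505 to 0.0845), Sorcs2 without cortical GFP-positive library 1 or any GFP-negative library (0.0556 to 0.109), Daam2 without these or cortical GFP-positive library 3 (0.0530 to 0.108), and Phactr1 without any GFP-negative library or medullary GFP-positive library 2 or 3 (0.0504 to 0.0845). Fkbp14 lost it without cortical GFP-positive library 1 or 2, any cortical GFP-negative library or medullary GFP-negative library 2 (0.0510 to 0.114). Sgpp2 was called only without cortical or medullary GFP-positive library 2 (0.0509 to 0.0696), and Bhlhb9 only without medullary GFP-positive library 1 or 2 or medullary GFP-negative library 1 (0.0510 to 0.149). With age as a covariate these 12 genes were not called (0.0583 to 0.114), with total counts Jund, Adam9 and Wnk1 were not (0.0537 to 0.0662), and with voom Lum and Jund were not (0.0888 and 0.0567).

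A further set of genes was at or near 0 in cortical GFP-negative cells and was called between gates in the cortex alone. Of 22 pericyte and smooth muscle genes 12 rose in the cortex and 6 in the medulla (7.14% and 10.2% over all genes) and none fell. A positive interaction was called for 3 of them, Ndufa4l2, Rgs5 and Vtn (0.857% over all genes). The list's median change was 4.03 in the cortex and 2.01 in the medulla, or 4.05 and 0.95 with genes without counts at their bound. Its summed level was 258 to 534 against 79.2 to 89.6 CPM in the cortex and 666 to 1233 against 338 to 386 CPM in the medulla. Other genes of this form were the cAMP phosphodiesterase gene Pde3a, the vitamin D receptor gene Vdr and Crispld2, which encodes a secreted protein.

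Rgs5, a regulator of G protein signalling in pericytes (chromosome 1, 169655501 to 169695813), stood at 31.5, 74.0 and 51.1 against 0, 1.84 and 0.473 CPM in the cortex. In the medulla it stood at 75.1, 222 and 107 against 138 and 118 CPM, which overlap (interaction 5.99, SE 1.08, edgeR adjusted p = 0.0299). Ndufa4l2, a mitochondrial protein induced in hypoxia and abundant in pericytes, stood at 19.2, 11.5 and 7.75 against 0.411, 0.514 and 0.315 CPM in the cortex and at 466, 280 and 287 against 185 and 150 CPM in the medulla (interaction 3.89, SE 0.534, edgeR adjusted p = 0.0144). Vtn, the adhesive glycoprotein vitronectin, stood at 1.78, 2.88 and 2.34 CPM against no count in the cortex, at least 62.0-fold higher, and had 1 count against 8 in the medulla. Pde3a had 632 counts against 1 in the cortex, a ratio of 739 (exact 95% interval 132 to 29225), and stood at 34.1 ± 12.1 (SD, n = 3) against 21.8 ± 13.3 CPM (SD, n = 2) in the medulla (edgeR adjusted p = 0.00776). Vdr rose 89.4-fold in the cortex and stood at 14.2 ± 7.55 (SD, n = 3) against 11.1 ± 5.21 CPM (SD, n = 2) in the medulla (interaction 6.13, SE 0.972). Crispld2 rose 88.6-fold in the cortex and stood at 19.8 ± 2.40 (SD, n = 3) against 8.15 ± 6.62 CPM (SD, n = 2) in the medulla (interaction 5.19, SE 0.960). The medullary gates of Ndufa4l2 and Crispld2 did not overlap, although neither passed the gate test there (edgeR adjusted p = 0.0588 and 0.200). In CPM the rise of Ndufa4l2 and Pde3a was larger in the medulla, so the sign of their interaction is that of the log2 scale alone. For Rgs5, Vtn, Vdr and Crispld2 the sign was the same in CPM.

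The chromaffin list summed to a higher level in medullary than in cortical libraries. Not every member was high in the medulla (Slc6a2 at 1.21 and 0.93 CPM), and Cpe was higher in the cortical gates. Of the 40 genes 2 had a called interaction (1.61% over all genes), in opposite directions. Scg3, a granin-family protein of secretory granules (chromosome 9, 75643189 to 75684056), stood at 3.38, 3.01 and 2.79 CPM in cortical GFP-positive libraries against no count, at least 81.0-fold higher, and rose 2.36-fold in the medulla, to 69.5, 135 and 71.2 from 50.4 and 27.8 CPM. The difference in CPM was larger in the medulla, although the log2 change of Scg3 was larger in the cortex. Scg5, the chaperone of prohormone convertase 2 (chromosome 2, 113776362 to 113829121), went the other way in the cortex, at 6.59, 4.98 and 1.67 against 61.0, 40.1 and 47.0 CPM, an 11.2-fold fall. In the medulla it stood at 164, 190 and 121 against 118 and 111 CPM, which did not pass the gate test (interaction -3.95, SE 0.589, edgeR adjusted p = 0.0212). Of the list 9 rose and 2 fell in the cortex (7.14% and 7.59% over all genes) and 5 rose and 1 fell in the medulla (10.2% and 11.1%, so that the share that rose there is near that of all genes), and 18 members had no count in some group. Th, tyrosine hydroxylase, which opens catecholamine synthesis, stood at 609, 559 and 232 against 651 and 273 CPM in the medulla and at 1.38, 0 and 0 CPM in cortical GFP-positive cells, and its interaction was not called (edgeR adjusted p = 0.357).

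Pde3a and Ndufa4l2 were called in all 11 fits without 1 library, though not with voom (adjusted p = 0.0631 and 0.101). Scg5 was not called without medullary GFP-negative library 2 (edgeR adjusted p = 0.0839), Scg3 not without cortical GFP-negative library 2 (0.0509), and Vdr not without cortical GFP-negative library 2 or 3 or medullary GFP-negative library 2 (0.0526 to 0.0740). Rgs5 lost its call without library 3 of cortical GFP-negative or library 2 or 3 of cortical GFP-positive cells, medullary GFP-positive library 1 or 3 or medullary GFP-negative library 2 (0.0516 to 0.0839). Crispld2 was called only without library 3 of either cortical gate or medullary GFP-negative library 1 (0.0559 to 0.107 otherwise), and Vtn only without medullary GFP-negative library 1 (0.0809 to 1.00). With age as a covariate Rgs5, Crispld2 and Vtn were not called (0.0725 to 0.106), and with voom Scg3, Vdr, Rgs5, Crispld2 and Vtn were not (0.0505 to 0.143).

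Immune identity genes were lower in GFP-positive cells of both tissues. Of 25 macrophage genes 23 fell in the cortex and 25 in the medulla (7.59% and 11.1% over all genes), with median changes of -4.38 and -4.74, and none had a called interaction. All 10 MHC class II genes fell in both tissues and none had a called interaction. Of 6 lymphocyte and granulocyte genes 1 had a called interaction (1.61% over all genes), Cd79b, a subunit of the B cell receptor. It stood at no count against 2.46, 1.76 and 2.80 CPM in the cortex, at least 52.8-fold lower, and was 6.52-fold lower in the medulla (edgeR adjusted p of the interaction = 0.0336).

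Interferon-stimulated genes, a list chosen after values had been seen and so given as a description, held several called interactions. Of 40 tested, 11 had one, all positive (0.857% over all genes), among them Bst2, Ddx58, Dhx58, Ifitm1, Irf7, Irf9, Ly6e, Rnf213, Sp100 and Trim30d. Of the 40, 6 rose and 9 fell in the cortex (7.14% and 7.59% over all genes) and none rose and 24 fell in the medulla (10.2% and 11.1%), and the list's median interaction was 0.98. Its summed level was 2481 to 2783 against 2431 to 2708 CPM in the cortex, which overlap, and 1937 to 2677 against 5289 to 5306 CPM in the medulla. The macrophage genes moved with the medullary side of this difference (740 to 2114 against 34284 to 35838 CPM). They also fell in the cortex (113 to 598 against 6630 to 9914 CPM), where the interferon-stimulated sums overlapped. The part of the macrophage genes in the difference was not tested.

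Ly6e, a membrane protein induced by interferon (chromosome 15, 74955051 to 74959905), stood at 267, 256 and 386 against 1274 and 1086 CPM in the medulla and at 942, 960 and 989 against 866, 851 and 944 CPM in the cortex (interaction 2.08, SE 0.231, edgeR adjusted p = 0.00776). Ifitm1 stood at 8.77, 10.1 and 11.6 against 0.859, 0.808 and 0.827 CPM in the cortex and at 1.45, 2.23 and 2.09 against 5.19 and 1.62 CPM in the medulla, so that its cortical gates were apart and its medullary gates overlapped. Trim30d, a member of a cluster of near-identical Trim30 genes between which reads may be split, stood at 24.2, 29.8 and 23.2 against 17.1, 15.8 and 15.7 CPM in the cortex and at 18.8, 13.7 and 19.5 against 51.1 and 58.7 CPM in the medulla. The interaction of Trim30d was 2.33 (SE 0.271, edgeR adjusted p = 0.00861), and that of its paralog Trim30a 2.21 (edgeR adjusted p = 0.0527).

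Interferon-stimulated genes are known for a promoter element bound by a complex that holds Irf9, so the 250 bases before the start site were searched for it, on both strands, as the letters GAAA, any 2 bases and GAAA again. It was present in 978 of 32851 RefSeq promoters (2.98%). Counted by gene, with a match in any promoter of the gene, it was present in 423 of the 12479 tested genes with a promoter (3.39%). The same count gave 11 of 29 genes of the list (37.9%), 2 of the 8 of these with a called interaction (25.0%) and 8 of all 262 interaction genes (3.05%). The share among all interaction genes is close to that of all tested genes. The 2 called genes of the list with a match were Bst2 and Trim30d. Bst2, which encodes the virus-retaining membrane protein tetherin, fell in both tissues, and Trim30d crossed. The promoters of both are shown. They are the 250 bases before the RefSeq start site on the minus strand of GRCm38.p6, at chr8:71537473-71537722 for Bst2 and chr7:104507850-104508099 for Trim30d, with the matches in capitals.
Bst2: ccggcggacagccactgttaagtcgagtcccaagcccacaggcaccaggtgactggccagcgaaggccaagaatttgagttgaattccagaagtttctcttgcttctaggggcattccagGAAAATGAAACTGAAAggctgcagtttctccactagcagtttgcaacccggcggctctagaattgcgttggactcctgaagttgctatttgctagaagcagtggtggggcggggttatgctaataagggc
Trim30d: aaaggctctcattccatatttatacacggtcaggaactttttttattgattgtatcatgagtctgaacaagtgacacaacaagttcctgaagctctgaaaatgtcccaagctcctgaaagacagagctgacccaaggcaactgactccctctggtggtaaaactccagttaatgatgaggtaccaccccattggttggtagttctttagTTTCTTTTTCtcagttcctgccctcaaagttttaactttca
The capitals of Bst2 cover 2 overlapping matches and those of Trim30d 1 match on the opposite strand, whose first printed base lies 41 bases before the start site. A match is a run of letters and not a measured binding site.

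Lysosomal genes, also chosen after values had been seen, had 8 called interactions of 40, all positive (0.857% over all genes). In the gate tests 18 fell and none rose in the cortex (7.59% and 7.14%) and 25 fell and 1 rose in the medulla (11.1% and 10.2%). Ctsh, a cathepsin protease (chromosome 9, 90054152 to 90076089), stood at 229, 189 and 221 against 361, 345 and 429 CPM in the cortex and at 117, 94.0 and 97.8 against 793 and 733 CPM in the medulla (interaction 2.06, SE 0.200, edgeR adjusted p = 0.00695). Npc2, the lysosomal cholesterol carrier, was 2.22-fold lower in the cortex and 4.47-fold lower in the medulla (interaction 1.01, SE 0.186, edgeR adjusted p = 0.0315). The others were Ctsa, Ctsz, Fuca2, Grn, Pla2g15 and Prcp. The list summed to 5711 to 6381 against 10294 to 12589 CPM in the cortex and 6781 to 7646 against 25141 to 27886 CPM in the medulla, again moving with the macrophage genes, whose part was not tested.

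Ly6e, Trim30d and Ctsh were called in all 11 fits without 1 library. The 40 interferon-stimulated genes had 3 to 8 calls in those fits, lowest without cortical GFP-negative library 2 or 3 or medullary GFP-negative library 2, and the 40 lysosomal genes 1 to 8, lowest without cortical or medullary GFP-negative library 2. Ifitm1 was not called without cortical GFP-negative library 2 (edgeR adjusted p = 0.0558), Bst2 not without that library, cortical GFP-negative library 3 or medullary GFP-negative library 2 (0.0516 to 0.0569), and Npc2 not without any GFP-negative library or medullary GFP-positive library 2 or 3 (0.0504 to 0.0794). Cd79b was called only without medullary GFP-positive library 1 (0.0512 to 0.0839). With age as a covariate Npc2 and Cd79b were not called (0.0806 and 0.0773), and with voom Cd79b was not (0.0905).

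Of 25 genes induced by dissociation, 2 rose and 9 fell in the cortex (7.14% and 7.59% over all genes) and 1 rose and 17 fell in the medulla (10.2% and 11.1%). A positive interaction was called for 3 of them, Jun, Ier3 and Jund (0.857% over all genes). Jun, an AP-1 subunit, stood at 295, 319 and 333 against 122, 126 and 146 CPM in the cortex and at 294, 294 and 374 against 276 and 474 CPM in the medulla, where the gates overlap (interaction 1.49, SE 0.282, edgeR adjusted p = 0.0344). Ier3, an immediate early gene, stood at 86.0, 185 and 139 against 280 and 343 CPM in the medulla and at 43.2 ± 5.70 against 29.7 ± 2.99 CPM (SD, n = 3 each) in the cortex (interaction 1.73, SE 0.358, edgeR adjusted p = 0.0451). The list summed to 5002 to 5826 against 7499 to 8832 CPM in the cortex and to 7074 to 9449 against 21991 to 26353 CPM in the medulla. The macrophage genes moved with it there (740 to 2114 against 34284 to 35838 CPM), and their part was not tested. None of the 3 calls held with total counts (edgeR adjusted p of 0.0599 to 0.0662) or with age as a covariate (0.0629 to 0.114). Jun was called only without medullary GFP-positive library 3 or GFP-negative library 1 (0.0608 to 0.0846 otherwise), Ier3 only without medullary GFP-positive library 1 or 2 (0.0539 to 0.151), and Jund only without medullary GFP-negative library 1 (0.0659 to 0.131).

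The remaining lists had no called interaction. Of 26 endothelial genes 25 had an interaction above 0, with a median of 1.62 (0.83 in the cortex and -1.04 in the medulla for the gate changes), but none was called, and 1 gene fell in each tissue's gate test and none rose. Their summed level was 158 to 544 against 225 to 418 CPM in the cortex and 495 to 536 against 887 to 1947 CPM in the medulla. Sox17, an endothelial transcription factor, had the lowest p, at 1.51, 37.2 and 15.2 against 2.65, 5.51 and 2.99 CPM in the cortex, which overlap, and 1.33 ± 0.920 (SD, n = 3) against 7.63 ± 5.41 CPM (SD, n = 2) in the medulla (edgeR adjusted p = 0.126). Over all genes 7.14% rose and 7.59% fell in the cortex, and 10.2% rose and 11.1% fell in the medulla. Of 26 proliferation genes 10 fell in the cortex and 13 in the medulla. Of 13 mitochondrially encoded genes 6 rose in the cortex and 13 in the medulla, with a median interaction of -0.36. Of 16 capsule and stem cell genes 1 fell in the cortex, near the share over all genes, and 3 rose and 3 fell in the medulla. Only 4 adipocyte genes and 1 erythroid gene could be tested.

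**Figure D5:**
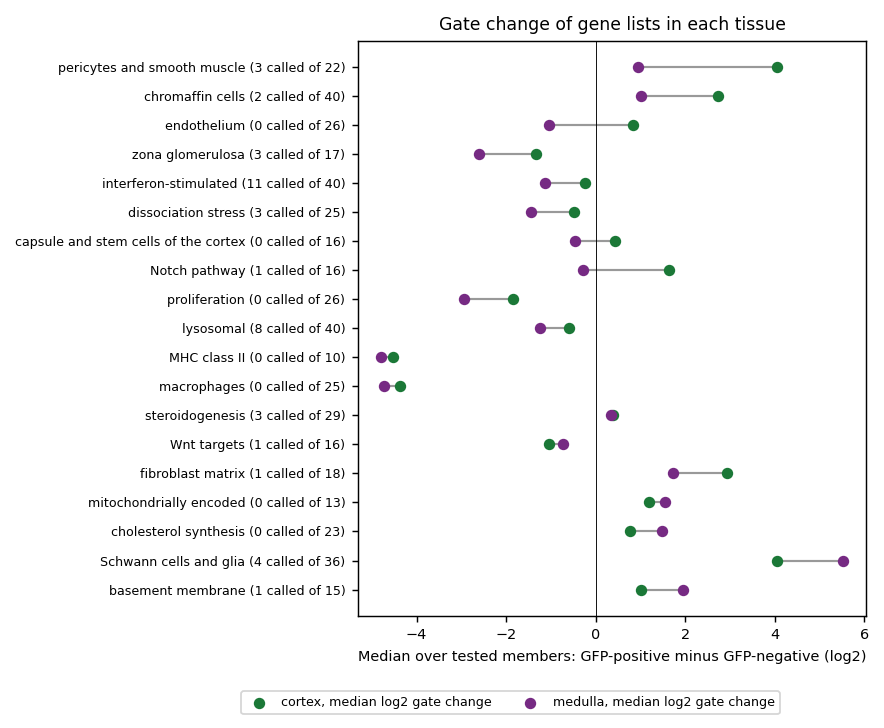
Median log2 change from GFP-negative to GFP-positive cells over the tested members of each list with at least 10 of them, in the cortex (green) and in the medulla (purple), with genes without counts in a group at their bound, ordered by the median interaction. The number of called interactions is given beside each list, and the interferon-stimulated and lysosomal lists were chosen after values had been seen; macrophage genes are at -4.38 and -4.74, while pericyte genes are at 4.05 and 0.95.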

How the data were processed

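The values are raw read counts per gene, deposited by the authors for 11 libraries. Per the submitters' processing notes, bcl2fastq 2.19.1, GSNAP and featureCounts 1.6.0 were used with mm10. DESeq and DESeq2 1.18.1 are also named there, and the comparison tables were not used here. The 92 spike-in rows (10 counts in all) were left out, and 345 gene identifiers had no symbol. Counts were filtered by group (filterByExpr), scaled by TMM and fitted in one model of 4 groups with edgeR 4.0.16 in R 4.3.3 (glmQLFit, glmQLFTest, Benjamini-Hochberg adjustment, threshold 0.05). The SE is the log2 change divided by the root of F. The fit had 7 residual degrees of freedom. Duplicate libraries were checked for and not found. Alternatives used DESeq2 1.42.0, voom (limma 3.58.1), other scaling and filters, a replicate block, age, and fits without 1 library. The test was run on simulated data first.

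Named genes were up to 8 opposite-direction genes of each orientation and up to 8 of the largest interactions of each sign (5 CPM in some group, no group at 3 counts or fewer), 3 of each sign with such a low group, and up to 4 called members of each list. Members and lists were chosen with earlier results of these data known, and the interferon-stimulated and lysosomal lists, with the genes named from them, after values had been seen. So were Sox10, S100b, Th, Star, Cyp11b1, Msmo1, Fdft1, Sox17 and Trim30a. Some genes that the rule names are not reported here. Ratios with 1 to 3 counts carry exact 95% intervals. Gene coordinates are those of mm10.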

Additional observations from a re-analysis of the deposited data

Results flagged for a closer look

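The gate effects of the cortex and the medulla differed by the test of the difference itself for 337 genes, and for 29 of these the gate was called in both tissues with opposite directions. The 15 named opposite-direction genes were picked out by that test. For those higher in GFP-positive cells of the cortex and lower in those of the medulla, the fitted interaction on the log2 scale was 3.70 for Jag1, 1.91 for Shtn1, 1.49 for Jund, 2.33 for Trim30d, 1.31 for Adam9 and 1.19 for Wnk1. The fitted value of Lum (14.78) rests on a group with 1 count and is not a bound. For the other orientation it was -3.58 for Sorcs2, -3.73 for Mboat2, -3.69 for Daam2, -3.40 for Sgpp2, -4.53 for Zdhhc2, -3.13 for Phactr1, -2.25 for Bhlhb9 and -1.92 for Fkbp14. Groups of 2 or 3 libraries are too small for a test of outlying samples.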

How the results depend on the processing

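All 337 interaction genes kept their sign in every alternative that gave them a value (320 of them under the stricter filter). The number of calls moved more. Leaving out 1 library gave 56 to 489 interaction calls, 35 to 187 positive, 17 to 302 negative, 2 to 34 opposite-direction, 1959 to 3252 cortical gate and 2956 to 4390 medullary gate calls; where an arm kept 1 library, it was assumed to vary like the other groups. Total counts gave 270 negative calls, against 158. A filter of 5 CPM in 2 libraries gave 657 calls (421 positive, 236 negative) and 55 opposite-direction calls. DESeq2 gave 1559 (776 positive, 783 negative) and 87 opposite. Age as a covariate gave 93 (56 positive, 37 negative) and 8 opposite. Older mice alone gave 0 interaction, 0 positive, 0 negative and 0 opposite calls, 1293 cortical and 1843 medullary gate calls, from fewer libraries. The replicate block gave 176 calls (93 positive, 83 negative) and 21 opposite, and 149 of the 337 were called with it. Losses with the block are not listed gene by gene above. They numbered 31 among the named genes, with Cyp11b2, Agtr1b, Insc, Jag1, Lum and Scg3 among them. Replicate numbers share no stated source. With group means removed, same-numbered libraries correlated at -0.009 to 0.078 (mean 0.032), against a mean of -0.016 for other numbers. For 6 of 11 libraries the best match in every other group carried their own number. Whether the numbers mark a shared source was not tested. DESeq2 size factors, no filter and voom gave 361, 449 and 310 calls. For named genes with a called interaction 786 alternative values kept the call and 490 lost it with the same direction. Causes were not tested. With 2 medullary GFP-negative libraries, both of older mice, the spread in that group is the least known.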
